A study of Homo sapiens with 17 samples.

Results

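The MYC, MAX and MXD network was followed through every perturbation of the series. Its 10 members were the genes MYC, MYCN, MAX, MXD1, MXD3, MXD4, MXI1, MNT, MLX and MGA, found by symbol among the 57820 genes of each deposited table, and all 10 had a row in all 17 libraries. The libraries were poly-A RNA of 2 human squamous cancer lines, 13 of KYSE140, which comes from an esophageal tumour, and 4 of SKMES1, which comes from a lung tumour.

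In KYSE140, e1, an enhancer near the transcription factor gene SOX2, was repressed by CRISPR interference (CRISPRi), in which an inactive Cas9 fused to transcriptional repressors is guided to a site. The CRISPRi e1 group held guides 1 and 2, and its control group held negative-control guides 1 and 2, which have no site in the genome. The SOX2 knockout group held active Cas9 with SOX2 guides 2, 3 and 4, and its controls were a guide to AAVS1 and a guide to a site on chromosome 2. The ARV-771 group held cultures A and B treated with 0.5 µM of this degrader of BET bromodomain proteins for 6 h, and the DMSO group held cultures A and B with the solvent for 6 h. In SKMES1, e1 was activated by CRISPR activation (CRISPRa), an inactive Cas9 that carries the activator VP64, with e1 guides 1 and 3 against negative-control guides 1 and 2. Guides and Cas9 were delivered by lentivirus into selected pools of cells, so each library is a mixed pool in 1 cell line. The study describes the libraries of e1 repression and of e1 activation as biologically independent experiments, each with its own guide. For the SOX2 knockout and ARV-771 libraries the labels do not say whether cultures of a group were grown apart, and p-values there measure only the spread between these libraries.

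Proteins of this network bind DNA as pairs through a basic helix-loop-helix leucine zipper. MAX is the shared partner. With MYC or MYCN it binds E-boxes and activates genes of growth, ribosome building and metabolism, and with MXD1, MXD3, MXD4, MXI1, MNT or MGA it binds the same motif and recruits repressors. MLX is a second hub, which pairs with MondoA, with MNT and with some MXD proteins. MXD1 is known for its rise in differentiating epithelium, where MYC often declines.

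The core E-box of the network reads CACGTG, which is the same on both strands. Of the 10 members, 9 had promoters in the RefSeq table (GRCh38.p14, 250 bases before to 50 bases after a start), 14 promoters in all, and MYC had no entry. The letters CACGTG stood in 3 of these 14, against 7.26% of all 35116 promoters in the table. The 250 bases before the start of these 3 promoters are shown because they carry the binding letters of the network in front of its own genes, with the motif in capitals. They are from MXD4 (chr4:2262110-2262359, minus strand), MNT (chr17:2401061-2401310, minus strand) and MLX (chr17:42566850-42567099, plus strand).
MXD4: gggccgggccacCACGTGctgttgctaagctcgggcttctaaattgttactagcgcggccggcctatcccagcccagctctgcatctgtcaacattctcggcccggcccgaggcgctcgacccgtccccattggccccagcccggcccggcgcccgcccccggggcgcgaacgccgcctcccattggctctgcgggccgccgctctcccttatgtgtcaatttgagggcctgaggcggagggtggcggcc
MNT: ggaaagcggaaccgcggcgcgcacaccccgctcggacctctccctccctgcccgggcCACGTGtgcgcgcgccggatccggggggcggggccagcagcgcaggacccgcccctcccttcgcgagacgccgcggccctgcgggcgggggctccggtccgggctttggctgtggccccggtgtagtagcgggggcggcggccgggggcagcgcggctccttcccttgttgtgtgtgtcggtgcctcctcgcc
MLX: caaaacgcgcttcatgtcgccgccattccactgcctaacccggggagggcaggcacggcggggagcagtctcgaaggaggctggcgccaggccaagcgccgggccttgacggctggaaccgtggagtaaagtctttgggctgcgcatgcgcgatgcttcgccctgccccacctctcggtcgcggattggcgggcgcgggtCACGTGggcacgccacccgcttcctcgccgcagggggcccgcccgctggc

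The motif began 238 bases before the start in MXD4, 193 bases before it in MNT and 50 bases before it in MLX. A match of letters is a description and not a measured binding site, and binding was not measured in these libraries.

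Total expected counts (the read counts that RSEM estimates per gene) ran from 7260730 to 15781463 per library. SOX2 itself fell in 3 comparisons and rose in the other. Its TPM (a level corrected for gene length and scaled to a fixed total within each library) was 379.21 and 364.7 in CRISPRi controls against 119.61 and 127.56 with e1 guides. SOX2 TPM was 396.65 and 427.69 in knockout controls, and 102.53, 125.04 and 220.69 for SOX2 guides 2, 3 and 4. With DMSO it was 236.02 and 223.21 against 9.8 and 10.54 with ARV-771, and in SKMES1 it was 1.68 and 1.53 against 223.8 and 315.75 with e1 activation. A knockout by small deletions need not lower the RNA, so this level does not measure the protein. Of 7 squamous epithelial markers, 7 were above 1 TPM in every KYSE140 library, but 3 were in every SKMES1 library, where KRT5 was at most 1.26 TPM. The blood marker CD3E was at most 0.16 TPM in any library, and the sum of 2 endothelial markers at most 0.82. Another blood marker, CD68, stood at 66.68 and 132.27 TPM in SKMES1 controls and at 44.89 and 36.12 with e1 activation. In KYSE140 libraries CD68 ran from 0.36 to 70.22 TPM. The fibroblast marker COL1A1 ran from 9.81 to 43.86 TPM over all libraries.

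**Figure D1:**
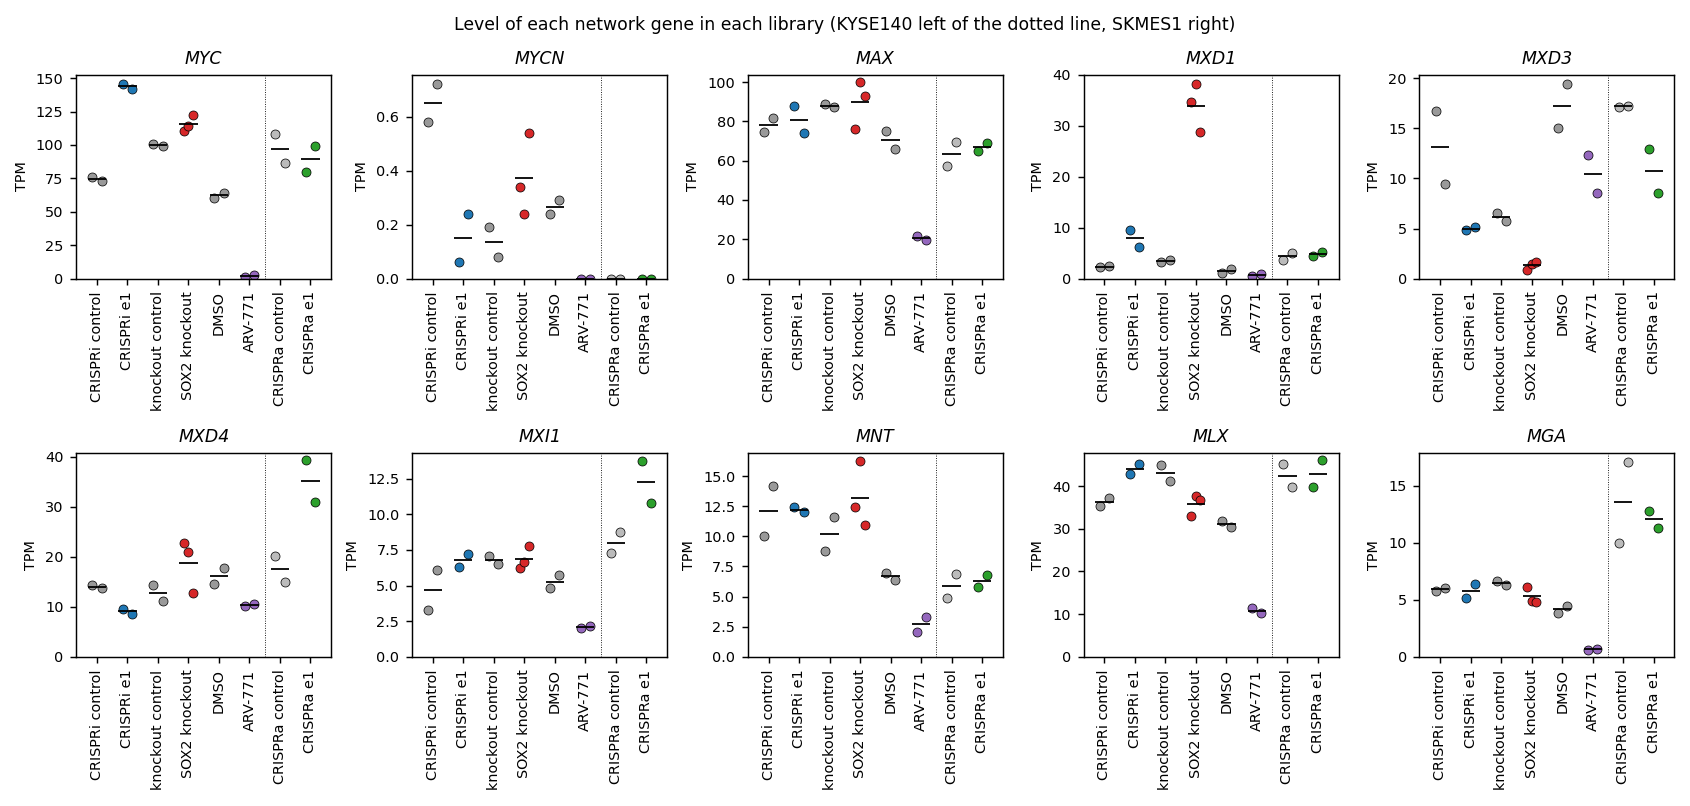
TPM of each of the 10 network genes (y axis, linear from 0, a separate scale per gene) in each of the 17 libraries (points) by group (x axis), with the group mean as a line. MYC stood at 142.23 and 145.53 with CRISPRi of e1 and at 1.33 and 2.79 with ARV-771, and MXD1 stood at 28.74 to 38.15 in the SOX2 knockout.

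MYC, the activating oncogene of the network, was abundant in both lines. Its mean TPM was 74.5 ± 1.78 (SD, n = 2) in CRISPRi controls, 99.8 ± 1.05 in knockout controls, 62.3 ± 2.73 with DMSO and 97.2 ± 15.2 in SKMES1 controls, each of 2 libraries. Ordered by mean TPM, the CRISPRi e1 group came first at 144, followed by the SOX2 knockout at 116, and neither overlapped the group after it. Knockout controls, SKMES1 controls and SKMES1 with e1 activation followed, and each overlapped its neighbour in that run. CRISPRi controls, DMSO and ARV-771 came last, with no overlap between them. MYC thus did not overlap between the 3 groups of KYSE140 controls, and each perturbation is given only against its own controls. MYCN, a paralog of MYC, was barely detected, with 1 to 14 counts in KYSE140 libraries other than ARV-771, and 0 in both ARV-771 and all 4 SKMES1 libraries. A count of 3 corresponded to 0.19 to 0.413 CPM, a count relative to its library's total, so MYCN sat close to what could be measured.

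The mean TPM of MAX was close to that of MYC in KYSE140 controls. It was 78.0 against 74.5 in CRISPRi controls, 88.0 against 99.8 in knockout controls and 70.4 against 62.3 with DMSO. In SKMES1 controls MAX stood lower than MYC, at 63.3 against 97.2. Its TPM ran from 65.92 to 99.81 across the 11 KYSE140 libraries not treated with ARV-771 and from 57.23 to 69.37 in SKMES1, and neighbouring groups overlapped throughout apart from ARV-771. MLX followed with 30.32 to 46 TPM outside ARV-771. The repressor partners were lower, with 14.28 and 13.67 TPM for MXD4 under control CRISPRi guides, where the mean TPM was 13.1 ± 5.15 for MXD3 (SD, n = 2), 12.1 ± 2.93 for MNT, 5.92 ± 0.20 for MGA, 4.70 ± 2.02 for MXI1 and 2.33 ± 0.21 for MXD1. MGA was higher in SKMES1, at 10 and 17.05 TPM in its controls, than in all KYSE140 libraries, where it reached at most 6.62. This difference between the lines was not tested, and line, method and controls cannot be told apart in it.

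Repression of e1 addressed what follows when the SOX2 enhancer is silenced. MYC rose with both guides, and so did the repressor genes MXD1 and MXI1, while MXD3, MXD4 and MYCN fell. Of the 10 members tested, 6 were called, 3 risen and 3 fallen. Called here means a p under 0.05 in edgeR's quasi-likelihood test after Benjamini-Hochberg adjustment over all genes, together with a fold change above 1.5. Over all 13792 genes tested, 20% were called, 9.3% risen and 10.7% fallen.

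MYC TPM was 75.73 and 73.21 in CRISPRi controls and 145.53 and 142.23 with e1 guides, and the groups lay far apart. Its count-based log2 fold change was 0.97 ± 0.06 (SE, n = 2 and 2, edgeR adjusted p = 3.77e-09), a fold of 1.96. PVT1, the long noncoding RNA gene that neighbours MYC, also rose, by 1.19 ± 0.22 on the log2 scale (edgeR adjusted p = 3.31e-04), although its expected count was not whole in 11 of 17 libraries. PVT1 was not called in the other comparisons. It stood at 0.14 ± 0.25 with SOX2 knockout, -0.06 ± 0.30 with ARV-771 and 0.04 ± 0.28 with e1 activation. MYC lies at 128747680 to 128755197 on the plus strand of chromosome 8 in GRCh37.

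MXD1, an antagonist of MYC linked to differentiation, had 2.18 and 2.48 TPM in controls and 9.62 and 6.18 with e1 guides. Every e1 library was above both controls, and the log2 fold change was 1.12 ± 0.19 (edgeR adjusted p = 2.20e-04). The ratio of mean TPM was 3.39 where the fold from counts was 2.17. RSEM gave this gene effective lengths of 5370.83 and 3732.78 bases in the controls and 2728.59 and 3060.84 with e1 guides, so the 2 measures weigh the same counts differently. Its expected counts were 93 and 75 against 170 and 133.

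MXI1, also a partner of MAX in repression, had 3.27 and 6.12 TPM in controls and 6.33 and 7.21 with e1 guides. The groups came close to touching, and the log2 fold change was 0.77 ± 0.20 (edgeR adjusted p = 0.00446). The call was lost on the TPM scale (limma adjusted p = 0.267 with a pseudocount of 1) and without control guide 1 (edgeR adjusted p = 0.0558).

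MXD3, an MXD gene known from proliferating cells, went from 16.74 and 9.46 TPM to 4.81 and 5.13, with no overlap. Its log2 fold change was -1.36 ± 0.25 (edgeR adjusted p = 4.15e-04). MXD4 went from 14.28 and 13.67 TPM to 9.56 and 8.65, also with no overlap, and its log2 fold change was -0.78 ± 0.12 (edgeR adjusted p = 9.71e-05). The MXD4 call held in 14 of 17 other settings. It was lost with mitochondrial scaling (-0.41), limma on log2(TPM + 1) (-0.57) and a fold over 2. MYCN had 11 and 14 counts in controls and 1 and 4 with e1 guides. Per depth this is a ratio of 0.234 (exact 95% interval 0.0698 to 0.621, counting error only), and its call (edgeR adjusted p = 0.0341) was lost in DESeq2 (adjusted p = 0.177) and without either control library or e1 guide 1 (edgeR adjusted p from 0.135 to 0.277).

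The hubs and the remaining partners were not called. The log2 fold changes were 0.13 ± 0.07 for MAX, 0.23 ± 0.08 for MLX, -0.12 ± 0.10 for MNT and 0.17 ± 0.11 for MGA. MLX passed the adjusted p (edgeR, 0.0236) but not the fold. MNT and MGA changed sign under at least 1 other scaling or on the TPM scale.

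**Figure D2:**
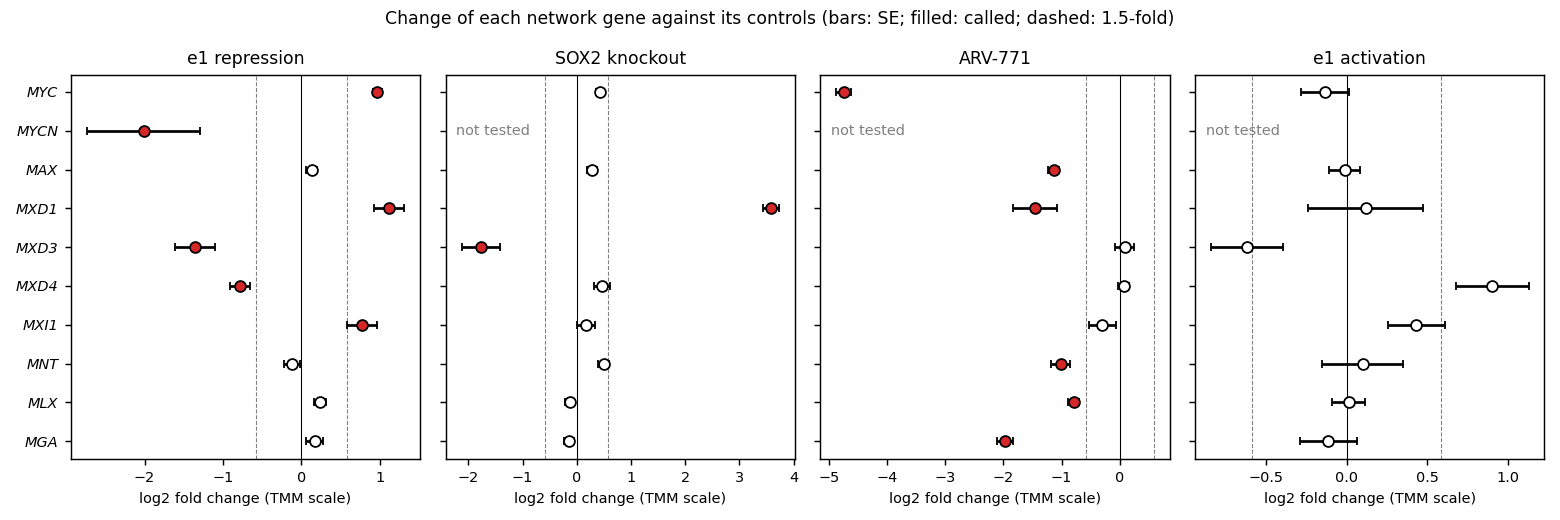
Log2 fold change (x axis, a separate range per panel) of each network gene against its controls in the 4 comparisons, with SE as bars, filled points for called genes and dashed lines at a fold of 1.5. MXD1 was called in 3 of the comparisons, risen by 1.12 and 3.58 and fallen by 1.45, and no member was called with e1 activation. The values for MXD3 and MXD4 with ARV-771 changed sign under other scalings.

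SOX2 knockout gave a narrower set of calls. MXD1 rose strongly with all 3 SOX2 guides, and MXD3 fell. MYC was higher with every SOX2 guide but did not reach the fold of 1.5. Of 9 members tested, with MYCN filtered out for low counts, 1 rose and 1 fell, against 29.7% of 13978 genes called, 16.3% risen and 13.4% fallen.

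MXD1 TPM was 3.29 and 3.64 in the controls of the knockout, and for guides 2, 3 and 4 it was 34.69, 38.15 and 28.74. No library of one group came near the other. The log2 fold change was 3.58 ± 0.15 (n = 3 and 2, edgeR adjusted p = 3.48e-09), which is 12-fold. The summed TPM of the 7 squamous markers moved in the same libraries, from 7596 to 7628 in controls to 23547 to 27566 in the knockout, and from 6634 to 6675 in CRISPRi controls to 10112 to 10181 with e1 guides. All 7 stood above 1 TPM in each of these groups. The sum of 4 markers of epithelium in general, EPCAM among them, was lower in the same libraries, from 2044 to 2146 TPM in controls to 1235 to 1572 in the knockout, and from 1378 to 1431 in CRISPRi controls to 1105 to 1118 with e1 guides. The sum of 4 blood markers went from 4.07 and 4.47 to between 54.3 and 70.2 TPM in the knockout, and from 1.18 and 1.23 to 24.6 and 25.8 with e1 guides, nearly all of it CD68, while CD3E was at 0 in these groups and PTPRC at most 0.23. The sum of 4 fibroblast markers went from 9.81 and 15.3 to between 39.3 and 43.9 TPM in the knockout, and from 13.5 and 15.9 to 37.4 and 38.4 with e1 guides, nearly all of it COL1A1, while COL1A2, COL3A1 and PDGFRB were at most 0.21. The part of any of these in the MXD1 result was not tested. A change in the share of cells in some state and a change in RNA per cell cannot be told apart in such bulk libraries of 1 cell line.

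MXD3 had 6.55 and 5.75 TPM in controls and 0.9, 1.41 and 1.65 in the knockout, again apart. The log2 fold change was -1.77 ± 0.35 (edgeR adjusted p = 0.00119) from counts of 43 and 30 against 13, 8 and 13, so the level in the knockout rests on few reads. MYC had 100.54 and 99.06 TPM in controls and 110.46, 114.49 and 122.54 in the knockout. All 3 knockout libraries were above both controls, at a log2 fold change of 0.43 ± 0.07 (edgeR adjusted p = 3.90e-04), and the ratio of mean TPM was 1.16. Over all settings the MYC value ran from 0.21 to 0.45 and did not pass the adjusted p in every one.

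MNT, a widely expressed MAX partner, gave 0.50 ± 0.10, MXD4 gave 0.47 ± 0.15 and MAX gave 0.28 ± 0.09 on the log2 scale. All 3 passed an adjusted p of 0.05 in edgeR but not the fold, and their TPM overlapped between groups. Over all settings MNT ran from 0.3 to 0.54, MXD4 from 0.27 to 0.6 and MAX from 0.02 to 0.37. None of these 3 passed the adjusted p in every setting. For MXD4 the library of guide 4, at 12.79 TPM, lay among the controls of 14.44 and 11.18, and without it the log2 fold change was 0.60 and was called (edgeR adjusted p = 3.54e-04). MXI1, MLX and MGA gave 0.18 ± 0.17, -0.13 ± 0.09 and -0.15 ± 0.10 and missed the adjusted p. MYCN had 3 and 1 counts in controls and 8, 3 and 9 in the knockout, a ratio per depth of 2.69 (exact 95% interval 0.9 to 10.8).

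Whether SOX2 knockout and e1 repression acted differently on a member was tested in 1 fit over the 13 KYSE140 libraries. It was called for 4 of 10 members against 16.6% of 14857 genes. MXD1 rose less with e1 repression, by -2.44 ± 0.30 on the log2 scale (edgeR adjusted p = 9.10e-06). MXD4 went lower with e1 repression by -1.23 ± 0.20 (edgeR adjusted p = 1.22e-04), MNT by -0.60 ± 0.15 (edgeR adjusted p = 0.00486) and MYCN, on its few counts, by -3.57 ± 1.10 (edgeR adjusted p = 0.0209). The MNT call was lost under 4 of 6 other settings. The effect on MYC was higher with e1 repression by 0.56 ± 0.09 (edgeR adjusted p = 1.20e-04), just under the fold of 1.5. It was called in 3 of 6 other settings. These were library size only (0.70), mitochondrial scaling (1.02) and limma on log2(TPM + 1) (0.73). The median over all genes stood at 0.17, 0.49 and 0.17 in them. MXD3, called in both comparisons, differed by 0.44 ± 0.38 (edgeR adjusted p = 0.422).

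ARV-771 addressed how the cells respond to loss of BET proteins, which read acetylated histones and keep MYC transcribed in many cancers. After 6 h MYC was almost gone from the RNA, and MGA, MXD1, MAX, MNT and MLX fell as well. All 6 called members had fallen, out of 9 tested. Over 13500 genes 52.9% were called, 21.2% risen and 31.7% fallen.

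MYC had 60.41 and 64.27 TPM with DMSO and 1.33 and 2.79 with ARV-771. The log2 fold change was -4.75 ± 0.13 (n = 2 and 2, edgeR adjusted p = 1.06e-19), which is 26.8-fold lower. Its counts were 1036 and 1082 against 25 and 35. MYCN went from 5 and 6 counts to 0 and 0, and the ratio per depth had an exact 95% interval of 0 to 0.38.

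MAX went from 74.9 and 65.92 TPM to 21.55 and 19.41, a log2 fold change of -1.13 ± 0.09 (edgeR adjusted p = 6.39e-11). MLX went from 31.78 and 30.32 TPM to 11.45 and 10.17, at -0.79 ± 0.09 (edgeR adjusted p = 3.93e-08). Both hubs were therefore lower by counts and by TPM. MGA, the largest protein of the network, with a second DNA-binding domain of the T-box kind, went from 3.85 and 4.48 TPM to 0.58 and 0.71, at -1.97 ± 0.14 (edgeR adjusted p = 5.08e-12). MNT went from 6.95 and 6.4 TPM to 2.09 and 3.34, at -1.02 ± 0.16 (edgeR adjusted p = 2.89e-06).

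MXD1 went from 1.08 and 1.84 TPM to 0.5 and 0.8, at -1.45 ± 0.38 (edgeR adjusted p = 0.00137). Its counts were 51 and 52 against 6 and 23, so the ARV-771 cultures differed widely from each other. Without culture A the log2 fold change was -0.94 and without culture B it was -2.49, both still called in edgeR. The call was lost on the TPM scale (limma adjusted p = 0.124 with a pseudocount of 1 and 0.146 with 0.1). The 3 members not called were MXI1 at -0.30 ± 0.23, MXD4 at 0.06 ± 0.10 and MXD3 at 0.08 ± 0.17.

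All 10 members had a lower TPM in both ARV-771 cultures than in both DMSO cultures, and so did 73.2% of the genes tested. Scaling decided the sign for MXD3 and MXD4, which were slightly above 0 under TMM scaling, the trimmed mean that centres most genes. With library size only, the median of all genes was -0.50 and MXD3 and MXD4 stood at -0.38 and -0.39. On log2(TPM + 1) the median was -0.60 and both stood at -0.68 and -0.58. Scaled to mitochondrially encoded genes, the median was -1.12 and both stood at -0.99 and -1.01. Against these medians, MXD3 and MXD4 were slightly higher in the 3 scalings of counts, and on the TPM scale MXD3 was lower and MXD4 slightly higher. MYC, MAX, MNT and MGA were called as fallen under every one of the 17 other settings. Mitochondrially encoded genes took 4.67% and 5.29% of counts with DMSO and 7.74% and 7.52% with ARV-771, and their part in this was not tested. Calls over all genes shifted from 2857 risen and 4279 fallen to 381 risen and 6075 fallen with library size only, and to 79 and 9524 with mitochondrial scaling.

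**Figure D3:**
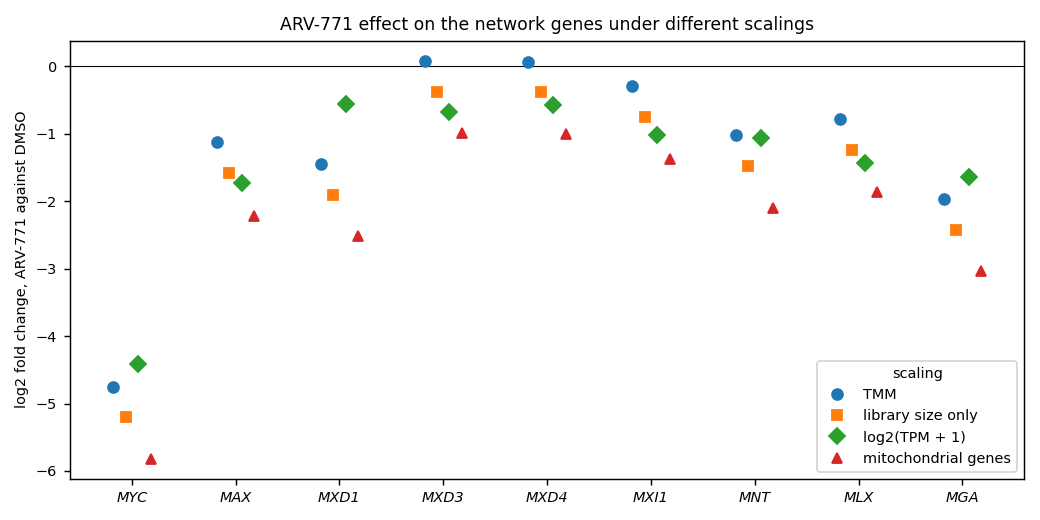
Log2 fold change of 9 network genes with ARV-771 against DMSO (y axis) under 4 scalings (symbols): TMM, library size only, limma on log2(TPM + 1), and the summed counts of mitochondrially encoded genes. MYC lay between -4.41 and -5.82 in all of them, while MXD3 and MXD4 lay slightly above 0 under TMM and below 0 under the other 3.

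The effect of ARV-771 differed from that of SOX2 knockout for 7 of 10 members, against 55.7% of genes, and from that of e1 repression for 9 of 10, against 53.9%. These contrasts share the ARV-771 and DMSO libraries. MYC differed by -5.05 ± 0.13 from the knockout and by -5.61 ± 0.13 from e1 repression on the log2 scale (edgeR adjusted p = 4.56e-15 and 1.38e-15). MXD1 differed by -4.89 ± 0.41 and -2.45 ± 0.44 (edgeR adjusted p = 7.04e-09 and 7.55e-05). MXD3 stood higher with ARV-771 by 1.99 ± 0.35 and 1.55 ± 0.31 (edgeR adjusted p = 7.06e-05 and 2.73e-04), but scaling to mitochondrial genes brought these to 0.91 and -0.01.

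In SKMES1, where SOX2 was nearly silent, activation of e1 addressed the opposite manipulation. No member was called in edgeR's quasi-likelihood test, and 1 was in DESeq2 and in the edgeR exact test. The 28 genes called were 0.188% of the 14859 tested, and 14.2% of genes had an unadjusted p under 0.05. Among the 9 members tested 2 had such a p. The 2 CRISPRa control libraries differed strongly from each other, with a summed squamous marker TPM of 163 and 655.

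MYC had 107.97 and 86.43 TPM in controls and 80 and 99.16 with e1 guides, which overlapped, and its log2 fold change was -0.13 ± 0.15 (edgeR adjusted p = 0.729). MXD4 had 20.11 and 14.98 TPM in controls and 39.21 and 30.95 with e1 guides. Its groups lay apart, at 0.90 ± 0.23 (edgeR adjusted p = 0.198, unadjusted 0.00844). MXD4 was called in 5 of 16 other settings, which were the edgeR exact test (adjusted p = 0.0169), DESeq2 (0.0151), all 17 libraries in 1 fit (0.00359), the fit without control guide 1 (0.00976) and the fit with no filter on low counts (3.47e-09). That last fit took in 24249 genes and called 1116 of them where the filtered fit called 28, and the reason for so low a p was not tested. In the settings that did not call MXD4 the adjusted p was at most 0.657.

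MXD3 had 17.19 and 17.27 TPM in controls and 12.92 and 8.58 with e1 guides, at -0.62 ± 0.22 (edgeR adjusted p = 0.313, unadjusted 0.0342). MXI1 had 7.28 and 8.73 against 13.73 and 10.82 TPM, at 0.43 ± 0.18 (edgeR adjusted p = 0.359). MXD4, MXD3 and MXI1 were the members whose groups did not overlap in TPM, 3 of 9, where 44.5% of tested genes did not overlap in one direction or the other. MAX, MXD1, MNT, MLX and MGA had log2 fold changes between -0.11 and 0.12 and overlapping TPM.

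Since TPM is per length, the levels of MYC and of the other MAX partners among the members can be set side by side within a library. MYCL, a MYC paralog outside the 10 members, is not in this sum. Its mean TPM was 9.37 in CRISPRi controls, 2.32 with CRISPRi e1 guides, 6.7 in knockout controls and 3.82 in the knockout. With DMSO the MYCL mean was 16.1 and with ARV-771 it was 1.665. MYC made up 58.9% and 58.1% of the summed TPM of MYC, MYCN, MXD1, MXD3, MXD4, MXI1, MNT and MGA in CRISPRi controls, and 75.2% and 75.7% with e1 guides. In the knockout controls it made up 68.2% and 68.7%, and in the knockout 57.0%, 56.4% and 64.6%. The share was thus higher with e1 repression and lower with SOX2 knockout in every library, although MYC TPM was higher in both. The MXD genes, MXI1, MNT and MGA together had 46.8 and 45.0 TPM in knockout controls against 83.1, 88.3 and 66.7 in the knockout. Their sum was 52.3 and 52.0 in CRISPRi controls against 47.9 and 45.5 with e1 guides.

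With DMSO, MYC made up 56.5% and 53.5% of the sum, and with ARV-771 4.58% and 9.63%. The sum of those antagonists went from 46.3 and 55.7 TPM to 27.7 and 26.2, and MXD3 and MXD4 made up most of what remained. In SKMES1 the share was 63.1% and 55.3% in controls and 47.4% and 57.4% with e1 guides, which overlapped. The share is a description of RNA levels with 2 or 3 libraries per group and was not tested.

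**Figure D4:**
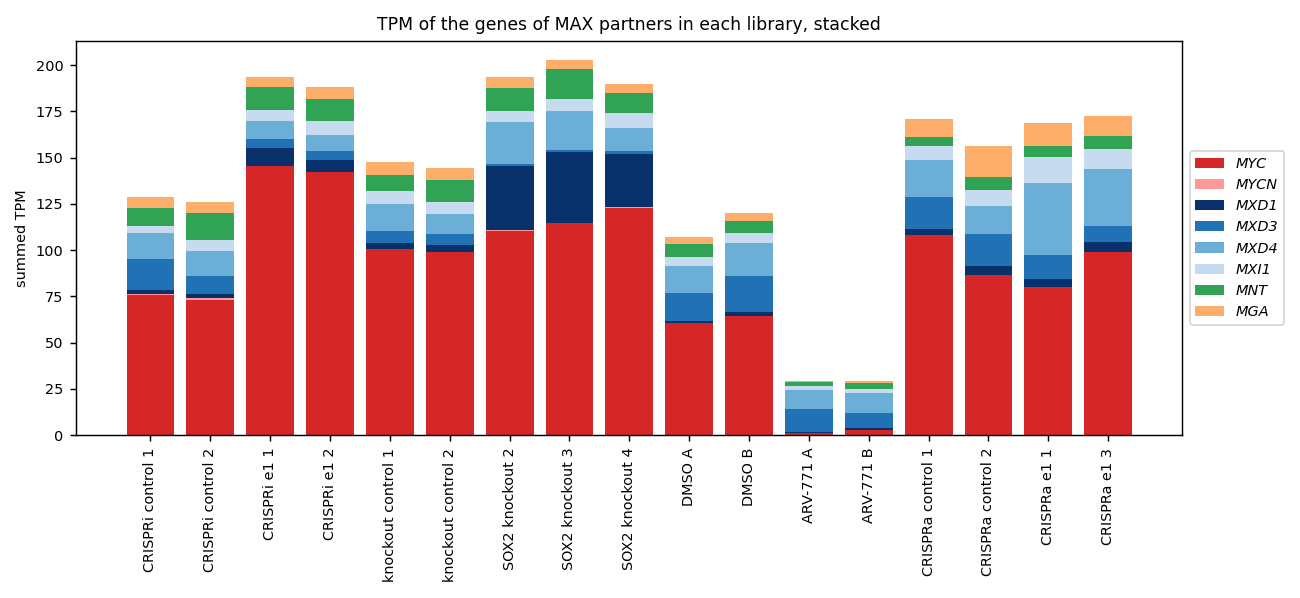
Summed TPM (y axis, from 0) of the MAX partners among the members in each of the 17 libraries, stacked by gene in legend order, with MYC at the bottom. MYCL is not included. The MYC part is 75.2% and 75.7% of the column with CRISPRi of e1 and 4.58% and 9.63% with ARV-771, and the MXD1 part is widest in the SOX2 knockout.

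Of 63 listed MYC target genes, mostly of ribosome building and nucleotide metabolism, 7 rose and 1 fell with e1 repression, so 12.7% were called against 20% of all genes tested. Their median log2 fold change was 0.25, against -0.002 over all tested genes. ODC1, the first enzyme of polyamine synthesis, rose by 0.84 ± 0.06, and HK2, a hexokinase of glycolysis, by 0.76 ± 0.08. NOLC1 and NIP7, which act in the nucleolus and in ribosome building, rose by 0.68 ± 0.05 and 0.69 ± 0.07, and the nucleoside transporter gene SLC29A2 fell by 0.65 ± 0.13 (edgeR adjusted p at most 7.59e-04 for these 5). With mitochondrial scaling, under which the median of all genes stood at 0.37, 37 targets rose and none fell. Of all 13792 genes, 3696 rose and 724 fell under that scaling.

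With SOX2 knockout, 1 target rose and 13 fell, so 22.2% were called against 29.7% of all genes. Of the 63, 12 had a positive log2 fold change, and the median was -0.25 against -0.006 over all genes. HK2 rose by 0.98 ± 0.09. PLK1, a mitotic kinase, fell by 0.82 ± 0.08, MCM4, part of the replicative helicase, by 0.72 ± 0.07, CDK4, a cell cycle kinase, by 0.67 ± 0.07 and SORD, sorbitol dehydrogenase, by 0.99 ± 0.10 (edgeR adjusted p at most 1.09e-05 for these 5).

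With ARV-771, 17 targets rose and 15 fell, so 50.8% were called, near the 52.9% of all genes, and the median was 0.19 against -0.044 over all genes. PPRC1, a coactivator of respiratory genes, fell by 3.04 ± 0.10, and GRWD1, PPAN and NOP2, of ribosome building, fell by 1.96 ± 0.10, 2.03 ± 0.10 and 1.17 ± 0.07. FBL, a nucleolar methyltransferase gene, CDK4, PHB, which encodes prohibitin, and SORD rose by 0.93 ± 0.05, 0.91 ± 0.05, 0.94 ± 0.05 and 1.00 ± 0.06 under TMM scaling (edgeR adjusted p at most 4.61e-13 for these 8). No target rose with library size only, on the TPM scale or with mitochondrial scaling, where 26, 31 and 43 fell. Few genes of any kind rose there. With library size only, 381 of 13500 genes rose and 6075 fell. On log2(TPM + 1) 122 of 13176 rose and 6324 fell, and with mitochondrial scaling 79 of 13500 rose and 9524 fell. With e1 activation no target was called by edgeR's quasi-likelihood test, its exact test or DESeq2. There 9 targets had an unadjusted p under 0.05, against 14.2% of all genes, and the median was -0.13 against -0.004.

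**Figure D5:**
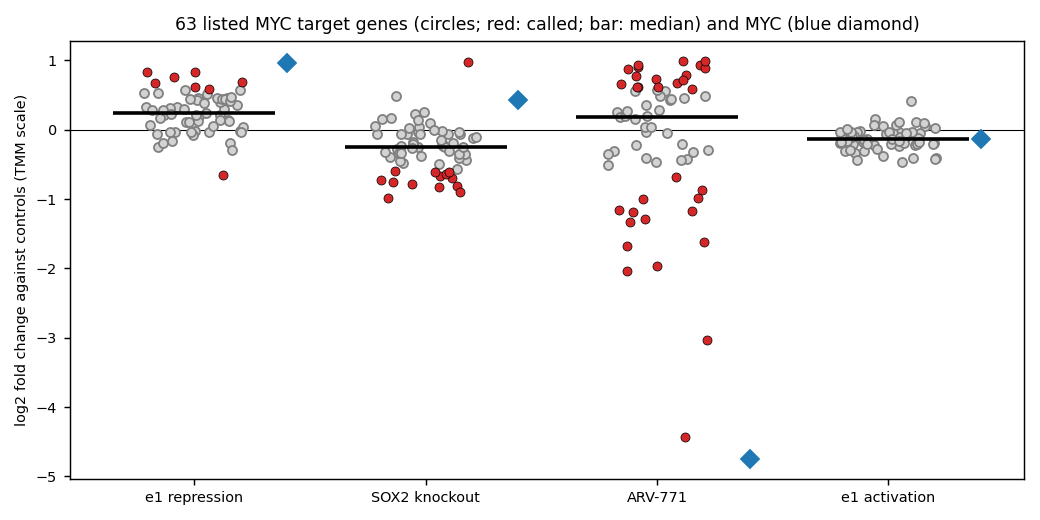
Log2 fold change under TMM scaling (y axis) of the 63 listed MYC targets (circles, red where called, median as a bar) and of MYC (blue diamond) in the 4 comparisons (x axis). The target medians were 0.25, -0.25, 0.19 and -0.13, and MYC stood at 0.97, 0.43, -4.75 and -0.13. No target was called as risen with ARV-771 under library size only, mitochondrial scaling or limma on TPM. Of all genes tested, only 381, 79 and 122 (the last on log2(TPM + 1)) were called as risen.

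Of the 63 targets 52 had RefSeq promoters, 68 in all, and CACGTG stood in 42.6% of these. With ARV-771, 9 of the 29 targets with the letters rose and 6 fell, and of the 23 without them 5 rose and 7 fell. In SOX2 knockout 7 of 29 with the letters fell, and 3 of 23 without them. The counts are a description and no difference between the groups was tested.

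Of 6 listed genes that MYC is known to repress, 5 were tested. With e1 repression 3 rose and none fell, against 9.3% of all genes risen and 10.7% fallen, and with SOX2 knockout 4 rose and none fell, against 16.3% and 13.4%. NDRG1, a stress and differentiation gene, rose by 2.22 ± 0.07 with e1 repression and by 3.18 ± 0.12 with SOX2 knockout. CDKN1A, the p21 inhibitor of the cell cycle, rose by 1.43 ± 0.06 and 2.56 ± 0.12, and GADD45A, a DNA damage response gene, by 1.85 ± 0.12 and 1.96 ± 0.09. NDRG2 also rose in the knockout, by 0.82 ± 0.16. In e1 repression the other members stood below 0 and were not called, CDKN1B, the p27 inhibitor of the cell cycle, at -0.39 ± 0.09 (edgeR adjusted p = 0.00266) and NDRG2 at -0.34 ± 0.15 (edgeR adjusted p = 0.0785). With ARV-771 1 rose and 1 fell, against 52.9% of all genes called, and the median was -0.22. GADD45A fell by 2.16 ± 0.20, and NDRG2, named after its values were seen, rose by 0.78 ± 0.10 while its TPM overlapped between groups. With e1 activation none was called by edgeR's quasi-likelihood test and 0 had an unadjusted p under 0.05, against 14.2% of all genes. The edgeR adjusted p of the called changes was at most 0.00109.

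The extended family held 6 genes. MYCL, a further MYC paralog, fell in 3 comparisons, by 2.13 ± 0.19 with e1 repression, 0.61 ± 0.19 with SOX2 knockout and 2.55 ± 0.16 with ARV-771. TFAP4, an E-box binding factor, fell by 0.94 ± 0.12 in the knockout and by 2.02 ± 0.15 with ARV-771. MLXIPL, the ChREBP partner of MLX, fell by 0.95 ± 0.27 in the knockout, and MLXIP, which encodes MondoA, and USF1 fell by 1.10 ± 0.10 and 1.11 ± 0.13 with ARV-771 (edgeR adjusted p at most 0.0169 for these 8 changes). MLXIPL was also called as risen with ARV-771, by 0.71 ± 0.18 (edgeR adjusted p = 0.00109, named after its values were seen), although its TPM was lower in both cultures. TXNIP, a target of the MLX and MondoA pair, rose by 1.13 ± 0.10, 1.59 ± 0.08 and 3.14 ± 0.08 in the same order of comparisons (edgeR adjusted p at most 2.46e-07). Its list companion ARRDC4 stood at -0.21 ± 0.11, 0.45 ± 0.11 and -0.43 ± 0.15 and was not called.

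Cofactors and turnover genes of MYC numbered 23. With e1 repression 1 was called (4.35%, against 20% of all genes), USP36, a nucleolar deubiquitinase, which rose by 0.76 ± 0.07. In the knockout 3 rose and 3 fell (26.1%, against 29.7%). GSK3B, a kinase that marks MYC for degradation, rose by 0.99 ± 0.07, SIN3B, a corepressor that MXD proteins recruit, by 0.85 ± 0.09, and KAT5, an acetyltransferase, by 0.61 ± 0.09. SKP2, a ubiquitin ligase subunit, fell by 1.31 ± 0.11, TRRAP, a MYC cofactor, by 0.71 ± 0.08 and USP28, a deubiquitinase, by 1.08 ± 0.15. With ARV-771 6 rose and 7 fell (56.5%, near the 52.9% of all genes). FBXW7, the ligase subunit that recognizes phosphorylated MYC, fell by 2.29 ± 0.26, the corepressor gene SIN3A by 1.76 ± 0.09, AURKA by 1.74 ± 0.10 and USP36 by 1.25 ± 0.10, while HDAC1 and RUVBL2 rose by 0.90 ± 0.05 and 0.79 ± 0.05 under TMM scaling (edgeR adjusted p at most 1.41e-04 for these 13 changes). From DMSO to ARV-771, mean TPM went only from 157.3 to 176.9 for HDAC1 and from 227.5 to 239.2 for RUVBL2.

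MGA works within a variant Polycomb complex, of which 9 further genes were listed. None was called by edgeR's quasi-likelihood test with e1 repression or e1 activation, where 2 and 1 had an unadjusted p under 0.05. Over all genes, 7052 of 13792 and 2109 of 14859 had such a p, and 20% and 0.188% were called. PCGF6 fell by 0.66 ± 0.14 in the knockout. With ARV-771 2 rose and 5 fell, against 21.2% and 31.7% of all genes. The fallen were E2F6 by 2.72 ± 0.19, RNF2 by 1.76 ± 0.15, RYBP by 0.89 ± 0.11, L3MBTL2 by 0.86 ± 0.13 and YAF2 by 0.80 ± 0.16. The risen were TFDP1 and CBX3, by 0.61 ± 0.05 and 0.62 ± 0.04 (edgeR adjusted p at most 0.00175 for these 8). YAF2, TFDP1 and CBX3 were named after their values were seen, and neither TFDP1 nor CBX3 was higher in TPM in both cultures. MGA and the 5 fallen genes were therefore lower in the same comparison.

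Across the 13 KYSE140 libraries, the genes whose level followed MYC most closely were TIMM22, ZNF703, TRIM27, PRDM4 and FADD, with Pearson r of 0.996, 0.996, 0.995, 0.995 and 0.995 among 10535 genes with a mean of at least 5 TPM. The genes most opposite were EXOSC1, ERGIC3, RPL37A, RPL13 and RPS9, at -0.994, -0.993, -0.992, -0.992 and -0.991. Without the ARV-771 and DMSO libraries these values were 0.879 to 0.947 and -0.853 to -0.690. Within the network MLX had an r of 0.958 with MYC, MAX 0.956, MNT 0.917, MXD1 0.678, MXI1 0.662, MXD4 -0.577 and MXD3 -0.664. Counted from the highest r among the 10535 genes, MLX had rank 643, MAX rank 679 and MNT rank 1298. For the members r was taken only under TMM scaling and with the ARV-771 and DMSO libraries included. The libraries share group structure and scaling, so these are descriptions and carry no test.

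Reads shared with other genes limit some members. Expected counts of MNT were not whole in 17 of 17 libraries and those of MLX in 15, against 2 for MXD1, 1 for MXD3 and 0 for the other 6, and a count that is not whole marks reads that RSEM divided among genes. The same held in 17 of 17 libraries for SORD, MLXIP and MLXIPL. In GRCh37 MAX overlaps FNTB on the opposite strand of chromosome 14, MXD1 shares a stretch of chromosome 2 with SNRNP27, MXD3 overlaps RAB24 and PRELID1 on chromosome 5, and MLX overlaps PSMC3IP on chromosome 17. Whether the counting used strand is not given in the sources used here, so reads of overlapping genes could be split between them. Among these overlapping members, the expected counts of MAX were whole in all 17 libraries.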

How the data were processed

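Poly-A RNA of 17 libraries was sequenced from a directional library kit. Per the labels, reads were aligned to hg19 with Bowtie2 and quantified by the authors with RSEM; versions and the strand setting are not given in the sources used here. The deposited expected count of a gene is the authors' RSEM estimate of its reads, not normalized between libraries. The deposited TPM was length-corrected and scaled within each library by the authors' RSEM run, so depth is lost in it. The deposited FPKM of the authors was not used.

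Groups followed the labels. Expected counts were rounded and tested in edgeR 4.0.16 (R 4.3.3) with TMM scaling, filterByExpr (minimum count 10, total 15) and the quasi-likelihood test, using the libraries compared. The SE is the size of the log2 fold change over the root of its F statistic. Interactions used 13 libraries. Replicate pairs differed by more than sampling noise and each library counted once. The tests were checked on simulated data, where e1 activation gave more false calls than the limit first set and that limit was then raised.

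Members, the 119 listed genes and the tests were chosen with earlier results of these data known. All members were named, as were up to 4 risen and 4 fallen genes per list, taken by smallest p from those that were called and whose groups did not overlap in TPM, and the 5 genes most like and most unlike MYC. A gene that the rule picked is not reported here, though counts over its list include it. Alternatives were the edgeR exact test, DESeq2 1.42.0, RLE factors (the median-ratio scaling), library size only, mitochondrial scaling, other filters and folds, all libraries in 1 fit, limma 3.58.1 on log2(TPM + 1) or log2(TPM + 0.1), a replicate block, and fits that each leave out 1 library. Gene positions came from GENCODE mapped to GRCh37, and promoters from RefSeq.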

Additional observations from a re-analysis of the deposited data

Results flagged for a closer look

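The effect of SOX2 knockout differed by test from that of e1 repression for 4 members, both in KYSE140 and each against its own controls. On the log2 scale the e1 effect minus the knockout effect was -2.44 for MXD1, which was higher than controls in both e1 and all 3 knockout libraries. It was -1.23 for MXD4, which was lower than controls in 2 of 2 e1 libraries and higher than both controls in 2 of 3 knockout libraries. It was -0.60 for MNT, a difference that lost its call under library size only, mitochondrial scaling, limma on TPM and the fit of all 17 libraries, and whose expected counts were never whole. It was -3.57 for MYCN, which rests on 1 to 14 counts per library.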

How the results depend on the processing

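Of the members called in e1 repression, SOX2 knockout and ARV-771, MYC, MXD1 and MXD3 in e1 repression, MXD1 in the knockout and MYC, MAX, MNT and MGA with ARV-771 kept their direction under every alternative, and lost a call nowhere except MYC in e1 repression (0.97) when a fold over 2 was asked. MXD3 in the knockout was not tested with a mean of at least 50 counts, which left 1 member called there. With a fold over 2, 3 members were called in e1 repression, and of the MYC targets 0 in e1 repression, 0 in the knockout and 11 with ARV-771. Over all genes that setting called 1527 of 13792, 2340 of 13978 and 3809 of 13500 in the same order. With no minimum fold the MYC targets called were 41, 38 and 57, and 6 members were called in the knockout, MYC (0.43) among them. Over all genes 6102, 7125 and 10154 were then called. Limma on log2(TPM + 1) called 3 members in e1 repression, and 1962 of all 13997 genes tested. In e1 activation 1 member, MXD4, was called by the edgeR exact test, DESeq2, with no filter and in the fit of all 17 libraries, settings that called 523, 400, 1116 and 784 of all genes there against 28.

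Mitochondrial scaling called 37 MYC targets in e1 repression and 2 in e1 activation, and 7 members differed between e1 repression and knockout. Over all genes this scaling called 4420 of 13792 and 680 of 14859, and 5065 of 14857 differed. Under it the log2 values changed sign for MNT in e1 repression (0.26), MXD3 (-0.99) and MXD4 (-1.01) with ARV-771, MXD1 (-0.18), MNT (-0.21) and MLX (-0.33) in e1 activation, MAX (0.33) between e1 repression and knockout, and MXD3 (-0.01) and MXD4 (-0.61) between ARV-771 and e1 repression. With library size only, signs changed for MXI1 in the knockout (-0.02), MXD3 (-0.38) and MXD4 (-0.39) with ARV-771, MAX in e1 activation (0.02) and MAX between e1 repression and knockout (0.01). Limma on log2(TPM + 1) and log2(TPM + 0.1) changed signs for MNT (0.02 and 0.03) and MGA (-0.04 and -0.04) in e1 repression, MXD3 (-0.68 and -0.73) and MXD4 (-0.58 and -0.62) with ARV-771 and MAX in e1 activation (0.09 and 0.09). With the former, MAX between e1 repression and knockout was 0.03 and MXD4 between ARV-771 and e1 repression -0.01. The cause was not tested, beyond the shift each scaling gives to all genes. Without MGA in the sum, the MYC share was 61.4% in CRISPRi controls, 77.8% with e1 guides and 71.6% in knockout controls.

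Leaving out each library gave -0.01 to 0.33 for MGA in e1 repression, -0.07 to 0.25 for MXD3, -0.02 to 0.14 for MXD4 and -2.49 to -0.94 for MXD1 with ARV-771, -3.18 to -1.41 for MYCN in e1 repression, and in e1 activation 0 to 1 members called, -0.28 to 0.03 for MYC, -0.04 to 0.02 for MAX, -0.26 to 0.67 for MXD1, -0.15 to 0.42 for MNT, -0.05 to 0.08 for MLX and -0.34 to 0.16 for MGA. The member of that last count was MXD4, called without control guide 1. Guide numbers in e1 repression and culture letters with ARV-771 were not used to pair the samples in the main fits. Deviations from the group mean correlated between same-numbered libraries with r = 0.0151 and -0.0425. With 2 libraries per group this is a single contrast, so it cannot show whether samples were handled as pairs. With a replicate block 6 members were called in each of these comparisons, as without it, and 8 and 32 MYC targets. Depth limits MYCN, MXD1 with ARV-771 and MXD3 in the knockout, at or below 23 counts per library.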
